A study of Mus musculus with 21 samples.

Results

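Cubn, Amn, Lrp2 and Dab2 encode 3 membrane proteins and 1 adaptor of the endocytic machinery of the visceral endoderm, and they were followed here across a time course of mouse embryonic stem cells given vitamin B6. The 4 genes were taken by symbol from tables of 78317 gene rows, and each symbol had 1 row. RNA was sequenced from 21 libraries of E14, an established mouse embryonic stem cell line, in 7 groups of 3. Untreated cells in standard culture form the ES group. The other groups were kept for 3, 5 or 7 days with vehicle or with 20 µM pyridoxine, the vitamin B6 form used here (VB6). All groups share the 1 cell line, and the labels name neither the medium nor the vehicle. Nothing in them ties the 3 libraries of any group to cultures of their own, so p-values measure only a spread between libraries that may be technical.

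Cubilin (Cubn) is a large extracellular receptor without a membrane span of its own. It is held and carried to the surface by amnionless (Amn), and the pair forms the cubam receptor. Megalin (Lrp2) is a large transmembrane receptor of the low density lipoprotein receptor family that shares ligands with cubam, and Dab2 is a cytoplasmic adaptor that binds receptor tails and links them to clathrin and its adaptor AP-2. Visceral endoderm uses this machinery to take up maternal proteins, lipoproteins and vitamin carriers, and kidney proximal tubule and intestine use parts of it later in life.

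Total expected counts, the reads assigned to genes by the authors' estimate, ran from 15882380 to 21629730 per library. A count of 3 corresponded to 0.139 to 0.189 counts-per-million (CPM) of that total, under every level of the 4 genes. Gene levels below are in CPM after TMM scaling, which evens out differences in composition between libraries. Vehicle day 5 and VB6 day 7 libraries stood apart from the rest. The fragment length implied by the deposited effective transcript lengths averaged 227 ± 8.69 nt for the vehicle day 5 libraries and 266 ± 7.77 nt for those of VB6 day 7 (SD, n = 3 each). The means of the remaining 5 groups fell between 307 and 312 nt. In the same 2 groups cytosolic ribosomal protein genes held 3.37% and 3.28% of counts, against 5.6% to 6.73% elsewhere, and mitochondrially encoded genes held 4.2% and 3.22%, against 1.67% to 2.71%. This property cannot be told apart from VB6 within day 5 or day 7, where it sits on the vehicle side at day 5 and on the VB6 side at day 7. Log2 differences of the 4 genes are therefore also given after subtraction of a smooth trend in GC content and transcript length fitted to each library, called the corrected value below. Libraries were matched to groups by their titles, and whether labels were exchanged between groups was not tested.

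The 4 genes differ in the properties that trend uses. Positions are on mm10. Cubn (ENSMUSG00000026726) lies on the minus strand at chr2:13276338-13491813, with 67 exons and a longest transcript of 11262 nt. Lrp2 (ENSMUSG00000027070) lies on the minus strand at chr2:69424340-69586065, with 79 exons and 15460 nt. Dab2 (ENSMUSG00000022150) lies on the plus strand at chr15:6299788-6440712, with 15 exons and 4663 nt. Amn (ENSMUSG00000021278) lies on the plus strand at chr12:111271095-111276426 and is compact, with 12 exons and 1701 nt. Amn transcripts are 64.4% GC, the 99.4th percentile of 16486 genes with both properties, while Cubn, Dab2 and Lrp2 are 44.7%, 45.2% and 49.2% GC. Cubn and Lrp2 are in turn at the 99.6th and 99.9th percentile of effective length. One antisense gene, Gm13270, shares 368 exon bases with Cubn and held 904 counts over all libraries against 254685 for Cubn. No source used here says whether the counting used strand.

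The contrast in base composition is shown with the middle 120 coding bases of each gene, read 5′ to 3′ on the coding strand from the mm10 reference with every G and C in capitals. The windows lie at chr2:13350927-13351046 for Cubn (exon 37), chr12:111274825-111275049 for Amn (exons 6 and 7, joined across the intron), chr2:69483336-69483455 for Lrp2 (exon 39) and chr15:6429698-6429817 for Dab2 (exon 10).
Cubn: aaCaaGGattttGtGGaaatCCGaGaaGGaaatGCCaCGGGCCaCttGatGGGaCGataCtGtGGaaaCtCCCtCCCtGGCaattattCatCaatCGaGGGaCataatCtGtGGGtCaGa
Amn: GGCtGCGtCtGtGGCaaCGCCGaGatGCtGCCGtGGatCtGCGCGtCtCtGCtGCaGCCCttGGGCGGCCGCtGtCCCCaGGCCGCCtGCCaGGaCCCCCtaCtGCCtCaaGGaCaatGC
Lrp2: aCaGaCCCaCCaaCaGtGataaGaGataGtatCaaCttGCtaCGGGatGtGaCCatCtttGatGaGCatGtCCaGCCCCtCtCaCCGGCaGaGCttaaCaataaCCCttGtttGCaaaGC
Dab2: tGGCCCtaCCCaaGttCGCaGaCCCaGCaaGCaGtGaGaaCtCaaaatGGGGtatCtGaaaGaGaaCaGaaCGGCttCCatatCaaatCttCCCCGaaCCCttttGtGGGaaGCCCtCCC
Of the 120 bases, 83 are G or C in Amn, against 57 in Cubn, 57 in Lrp2 and 62 in Dab2. Over the whole coding sequence the GC content is 65.9% for Amn, 46.4% for Cubn, 49.7% for Lrp2 and 48.8% for Dab2. At the last position of codons Amn reaches 79.5%, the other genes 46.3%, 53.1% and 44.5%.

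All 4 genes were at their lowest in ES cells and rose by day 3. Cubn read 24.4, 29.9 and 22.0 CPM in the ES libraries and 377, 405 and 454 CPM in the vehicle day 3 libraries. Lrp2 read 47.3, 49.5 and 46.4 CPM in ES and 681, 704 and 733 CPM in vehicle day 3. Dab2 read 17.5, 16.3 and 15.6 CPM in ES and 216, 219.5 and 233 CPM in vehicle day 3. In each of the 3 genes every day 3 library lay far above every ES library. Amn was scarcer, at 7.07, 5.22 and 5.82 CPM in ES and 26.5, 29.1 and 31.9 CPM in vehicle day 3, again without overlap. In the edgeR quasi-likelihood fit over all libraries, the log2 fold change of vehicle day 3 against ES was 4.02 ± 0.12 (SE) for Cubn, 3.89 ± 0.06 for Lrp2, 3.76 ± 0.08 for Dab2 and 2.27 ± 0.14 for Amn. All 4 genes were called higher, with Benjamini-Hochberg adjusted p-values from 1.06e-22 (Lrp2) to 2.26e-12 (Amn). At the same threshold of 0.05, 64.9% of the 18901 genes tested were called in this comparison, and 33.1% of the genes tested were called higher, so a call alone is common. The median log2 fold change was 3.82 over the 4 genes and 0.01 over all genes. Corrected values were 3.65, 3.52, 3.69 and 2.33 for Cubn, Lrp2, Dab2 and Amn. VB6 day 3 against ES gave 4.01, 3.83, 3.99 and 2.07 in that order, where again all 4 were called (65.3% of all genes). Both day 3 comparisons use the same ES libraries.

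**Figure D1:**
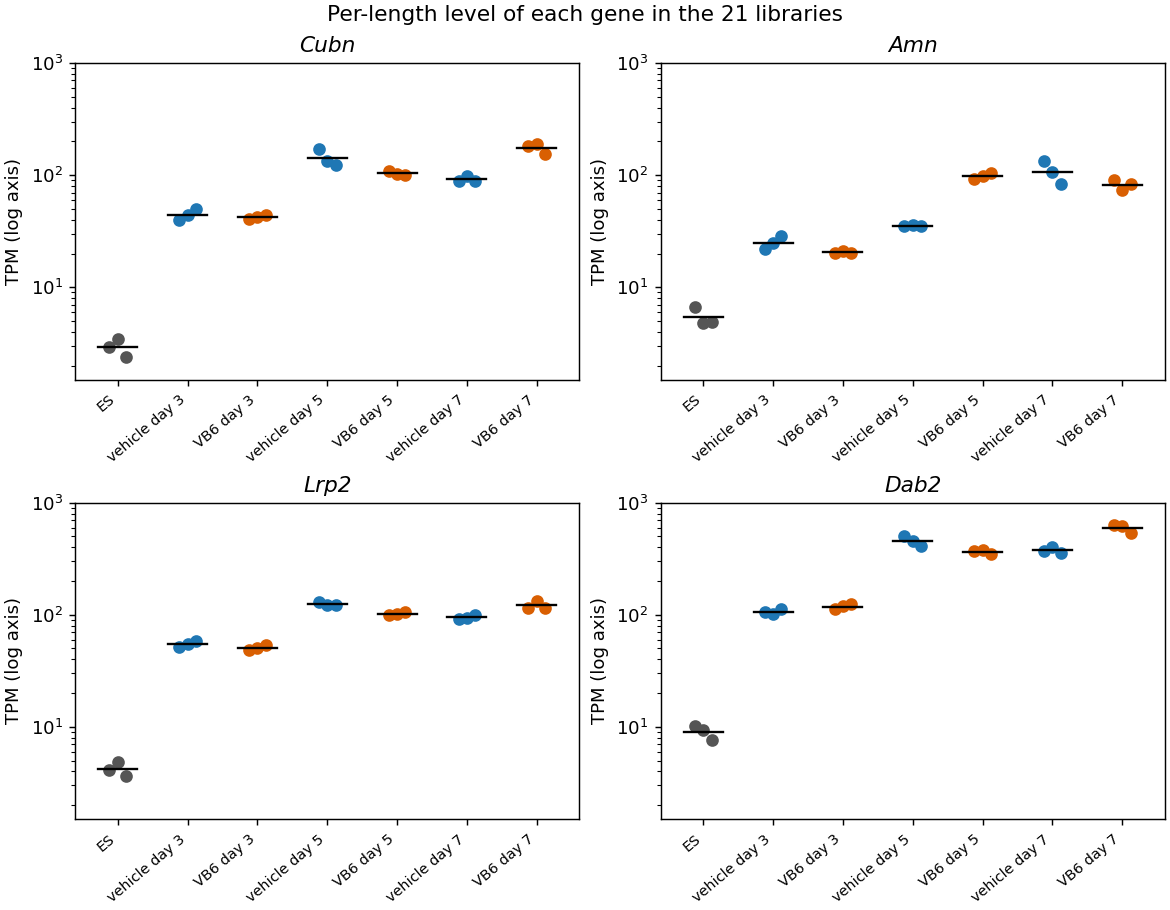
Level per length of Cubn, Amn, Lrp2 and Dab2 in each of the 21 libraries, in transcripts-per-million (TPM, log axis), by group (grey ES, blue vehicle, orange VB6); lines are group means of 3 libraries. ES libraries are lowest for every gene, and Amn in vehicle day 5 (35.2 to 35.9 TPM) lies under its other day 5 and day 7 groups.

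Cubn continued upward after day 3. Vehicle libraries held 1169, 936 and 878 CPM at day 5 and 729.5, 838 and 750.0 CPM at day 7. Every one of these lay above the highest vehicle day 3 library. The increase from day 3 was called at day 5 (log2 fold change 1.27 ± 0.10, adjusted p = 1.39e-10, edgeR; corrected 0.65) and at day 7 (0.91 ± 0.10, adjusted p = 2.81e-08; corrected 0.80). Day 7 libraries lay under those of day 5, a called decrease of log2 -0.36 ± 0.10 (adjusted p = 0.00255) that became 0.16 with adjusted p = 0.11 after correction. With VB6, Cubn read 965, 894 and 838 CPM at day 5 and 1253, 1297.5 and 1069.7 CPM at day 7, where all 3 libraries were above those of day 5. The rise over day 3 was 1.13 ± 0.10 at day 5 and 1.56 ± 0.10 at day 7, with corrected values of 1.13 and 1.15. The called step from VB6 day 5 to day 7 (0.42 ± 0.10, adjusted p = 0.000874) shrank to 0.02 with adjusted p = 0.879.

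Amn, the partner that carries cubilin to the membrane, took another course in the vehicle cells. It read 32.3, 33.7 and 33.4 CPM in vehicle day 5, barely above the 26.5 to 31.9 CPM of day 3, and 138, 115 and 88.8 CPM in vehicle day 7. Day 7 libraries were thus all well above those of day 5, and day 5 and day 3 did not overlap. The day 5 difference from day 3 did not pass the test (0.18 ± 0.12, adjusted p = 0.182), but its corrected value of 1.05 ± 0.09 did (adjusted p = 5.55e-11). The day 7 rise over day 5 was 1.78 ± 0.11 (adjusted p = 4.09e-12; corrected 0.75), and over day 3 it was 1.97 ± 0.12 (adjusted p = 3.71e-13; corrected 1.80). With VB6, Amn read 102, 109 and 108 CPM at day 5 and 80.5, 65.7 and 70.8 CPM at day 7. The VB6 groups therefore peaked at day 5 without overlap, a called fall of log2 -0.56 ± 0.11 (adjusted p = 0.000123) that turned to 0.03 (adjusted p = 0.754) once corrected. The rise of VB6 day 5 over VB6 day 3, between groups of like fragment length, was 2.07 ± 0.12 (corrected 1.68).

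Lrp2 had the smallest fold changes of the 4 genes between day 3 and day 7 in both arms, a difference between genes that was not tested. Vehicle libraries read 1198, 1159.6 and 1159 CPM at day 5 and 1035, 1090.0 and 1103 CPM at day 7, and VB6 libraries 1196, 1219 and 1215 CPM and then 1061, 1226 and 1073 CPM. All 12 were above every day 3 library, whose highest was 733 CPM. The vehicle rise over day 3 was 0.73 ± 0.05 at day 5 and 0.61 ± 0.05 at day 7 (adjusted p = 3.69e-11 and 5.99e-10; corrected 0.42 and 0.56). The VB6 rise was 0.84 ± 0.05 and 0.72 ± 0.05 (corrected 0.79 and 0.45). From day 5 to day 7 the vehicle value was -0.12 ± 0.05 (adjusted p = 0.0461), which missed the threshold when any of the 3 vehicle day 5 libraries or vehicle day 7 replicate 1 or 2 was left out (adjusted p from 0.0637 to 0.193) and turned to 0.14 once corrected. The VB6 value was -0.11 ± 0.05 (adjusted p = 0.0827). It was called without VB6 day 7 replicate 2 (-0.18, adjusted p = 0.00577) and after correction (-0.34, adjusted p = 1.44e-07).

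Dab2, the adaptor, had larger fold changes than both large receptors between day 3 and day 7 (difference not tested). Vehicle libraries read 845, 772 and 716 CPM at day 5 and 709.7, 789.5 and 688 CPM at day 7. The 2 groups overlapped, and all 6 libraries were above the 233 CPM of the highest vehicle day 3 library. The rise over day 3 was 1.80 ± 0.07 at day 5 and 1.71 ± 0.07 at day 7 (adjusted p = 7.52e-16 and 4.62e-16; corrected 1.45 and 1.74). The vehicle step from day 5 to day 7 was -0.09 ± 0.07 (adjusted p = 0.228), and 0.29 ± 0.06 (adjusted p = 0.00015) after correction. With VB6, Dab2 read 742, 737 and 676 CPM at day 5 and 1035, 1025 and 882 CPM at day 7, without overlap. The VB6 rise over day 3 was 1.46 ± 0.07 and 1.91 ± 0.07 (corrected 1.56 and 1.79), and the step between the days was 0.45 ± 0.07 (adjusted p = 5.41e-06; corrected 0.23).

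Between day 7 and day 3 all 4 genes were called higher in vehicle cells, where 67.4% of genes were called, and all 4 in VB6 cells, where 70.9% were. The median over the 4 genes was 1.31 and 1.53, beside all-gene medians of -0.01 and 0.02. From day 3 to day 5, 3 of 4 were called higher with vehicle (all genes 65.3%) and 4 of 4 with VB6 (56.2%). From day 5 to day 7, Amn was called higher and Cubn and Lrp2 lower with vehicle (66.3%), while Cubn and Dab2 were called higher and Amn lower with VB6 (54.5%). After correction, Amn, Lrp2 and Dab2 were called higher in the vehicle step and none of the 4 lower (63.7% of genes called), while in the VB6 step Dab2 was called higher and Lrp2 lower (56.7%).

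On the per-length TPM scale, which allows the genes to be compared with each other, Dab2 was the most abundant of the 4 transcripts in all 7 groups. Its group means ran from 9.02 TPM in ES through 107 TPM in vehicle day 3 to 596 TPM in VB6 day 7. Cubn ran from 2.93 TPM in ES to 176 TPM in VB6 day 7, and its other group means were 42.3 (VB6 day 3), 44.3 (vehicle day 3), 92.1 (vehicle day 7), 104 (VB6 day 5) and 143 TPM (vehicle day 5). Neighbours overlapped in 2 places in that order, between the day 3 groups and between vehicle day 5 and VB6 day 7. Lrp2 ran from 4.21 TPM in ES to 125 TPM in vehicle day 5, and its day 5 and day 7 means stayed between 94.9 and 125 TPM. Amn ran from 5.45 TPM in ES and 20.6 TPM in VB6 day 3 to 108 TPM in vehicle day 7, a group whose libraries (83.0 to 133 TPM) overlapped those of VB6 day 5 (92.3 to 105 TPM). In ES cells Amn was above Cubn per length, and in both day 3 groups Cubn was above Amn.

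VB6 was compared with vehicle at each day. At day 3 none of the 4 genes was called (4.26% of all genes were). Dab2 came closest: its VB6 libraries read 255, 263 and 266 CPM against 216, 219.5 and 233 CPM with vehicle, without overlap. The log2 fold change was 0.23 ± 0.07 (adjusted p = 0.057, edgeR). It passed under DESeq2 (adjusted p = 0.0189) and in a fit of the 6 libraries alone (adjusted p = 0.0027), and not after correction (0.17, adjusted p = 0.0896). Amn read 25.0, 26.3 and 24.8 CPM with VB6, each just under the lowest vehicle library at 26.5 CPM (-0.20 ± 0.12, adjusted p = 0.369). Its corrected value was 0.05 ± 0.09 (adjusted p = 0.779, edgeR). Cubn (393, 414 and 423 CPM with VB6) and Lrp2 (641, 682 and 711 CPM) overlapped their vehicle libraries. Their log2 fold changes were -0.01 ± 0.10 and -0.06 ± 0.05 (corrected -0.05 and -0.05). The day 3 groups had implied fragment lengths of 312 ± 4.33 and 308 ± 3.4 nt, so this is the comparison between libraries most alike in that property. Fitted trends for Amn still differed, at 0.09, 0.22 and 0.25 (log2) with vehicle and -0.07 in each VB6 library.

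At day 5 Amn was higher with VB6 and the other genes were not called. Amn libraries read 102 to 109 CPM with VB6 and 32.3 to 33.7 CPM with vehicle, a 3.21-fold difference (log2 1.68 ± 0.11, adjusted p = 4.73e-11, edgeR) in a comparison where 56.7% of genes were called. After correction it was 0.68 ± 0.08 (adjusted p = 1.5e-07), still called and less than the uncorrected size. Fitted trends at the GC content and length of Amn were -0.72, -0.72 and -0.58 in the vehicle libraries and 0.19, 0.31 and 0.44 (log2) in the VB6 libraries. Cubn (-0.15 ± 0.10, adjusted p = 0.22), Dab2 (-0.11 ± 0.07, adjusted p = 0.153) and Lrp2 (0.05 ± 0.05, adjusted p = 0.486) overlapped between the 2 groups. Their directions depended on the scale: corrected values were 0.44, 0.28 and 0.32, all called higher (40.6% of genes called after correction), and on log2(TPM + 1) with limma they were -0.44, -0.32 and -0.29, all called lower. No direction at day 5 is therefore given for these 3 genes.

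At day 7 Cubn and Dab2 were higher with VB6 and Amn was lower, where 36.5% of genes were called. Cubn read 1069.7 to 1297.5 CPM with VB6 against 729.5 to 838 CPM, without overlap (0.64 ± 0.10, adjusted p = 2.28e-05, edgeR). Dab2 read 882 to 1035 CPM against 688 to 789.5 CPM, also without overlap (0.43 ± 0.07, adjusted p = 2.83e-05). Both stayed called after correction (27.4% of genes) at smaller sizes, 0.30 (adjusted p = 0.00954) for Cubn and 0.22 (adjusted p = 0.00759) for Dab2. Amn read 65.7 to 80.5 CPM with VB6 against 88.8 to 138 CPM (-0.66 ± 0.11, adjusted p = 4.66e-05), and its corrected value was -0.04 (adjusted p = 0.715). Lrp2 overlapped between the groups (0.06 ± 0.05, adjusted p = 0.432). Its corrected value was -0.16 (adjusted p = 0.00536) and its value on log2(TPM + 1) was 0.35 (adjusted p = 0.00147, limma), so its direction is not given.

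**Figure D2:**
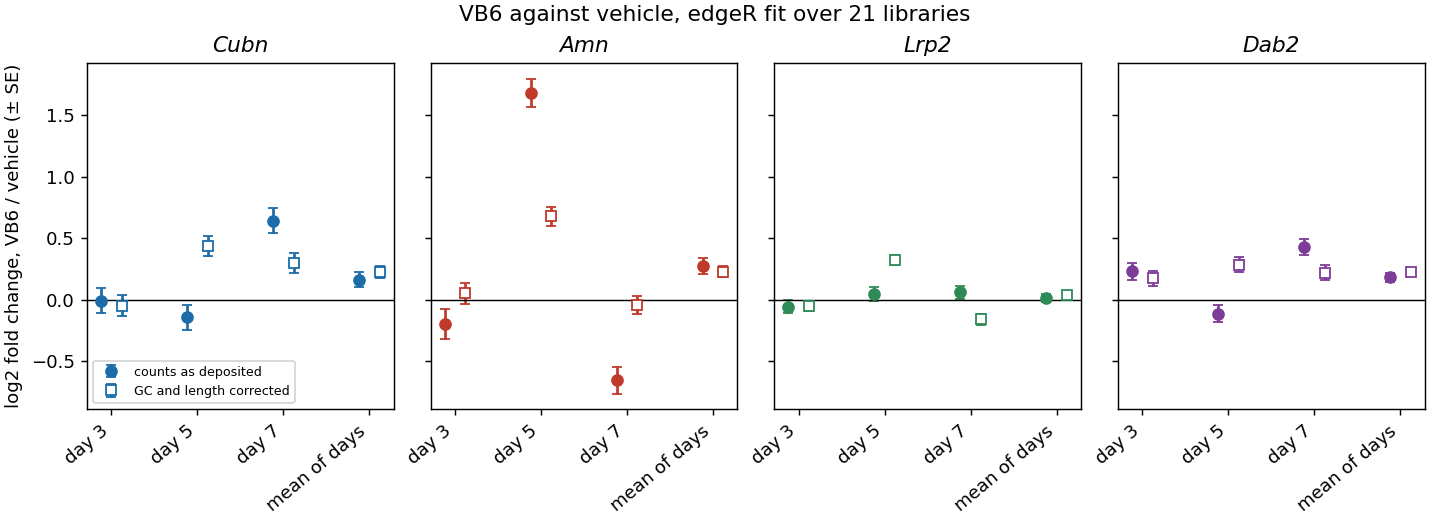
Log2 fold change of VB6 over vehicle (± SE, edgeR) at days 3, 5 and 7 and averaged over the days, per gene, from the counts as deposited (filled circles) and after the GC and length correction (open squares). Amn moves from 1.68 to 0.68 at day 5 and from -0.66 to -0.04 at day 7; the averages over days move less.

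Averaged over the 3 days, Amn was higher with VB6 by log2 0.28 ± 0.07 (adjusted p = 0.00886, edgeR) and Dab2 by 0.18 ± 0.04 (adjusted p = 0.00435), in a contrast where 11.7% of genes were called and 6.58% called higher. For Amn this average joins days of opposite sign without correction (-0.20, 1.68 and -0.66 at days 3, 5 and 7). Its corrected values on those days were 0.05, 0.68 and -0.04, of which only that of day 5 was called. Cubn (0.16 ± 0.06, adjusted p = 0.0668) was not called with all libraries. It was called without vehicle day 3 replicate 3 (0.19, adjusted p = 0.0416), without vehicle day 5 replicate 1 (0.21, adjusted p = 0.0155) and without VB6 day 7 replicate 3 (0.19, adjusted p = 0.0366). Lrp2 was at 0.01 ± 0.03 (adjusted p = 0.812). Corrected averages were 0.23 for Amn, 0.23 for Dab2, 0.23 for Cubn and 0.04 for Lrp2, the first 3 called (13.2% of genes). The averages of Dab2 and Amn missed the threshold on log2(TPM + 0.1) with limma (0.16, adjusted p = 0.0745, and 0.28, adjusted p = 0.0508).

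The VB6 difference itself was compared between days. A joint test over the 3 days called Cubn, Amn and Dab2, 3 of the 4 genes, where 60% of all genes were called. By pairs of days, Amn and Dab2 were called for day 5 against day 3 (48% of genes), Cubn, Amn and Dab2 for day 7 against day 5 (57.7%), and Cubn and Amn for day 7 against day 3 (23.1%). Of these 7 calls 4 were lost after correction, those of Dab2, of Cubn between day 5 and day 7, and of Amn between day 3 and day 7. For day 5 against day 3, corrected changes were 0.63 for Amn, 0.49 for Cubn (adjusted p = 0.00264, edgeR) and 0.37 for Lrp2 (adjusted p = 3.21e-05), all called higher, and 0.11 for Dab2 (adjusted p = 0.349), where 32.1% of genes were called. For day 7 against day 5 they were -0.72 for Amn and -0.48 for Lrp2 (adjusted p = 3.29e-07), both called lower, and -0.14 for Cubn (adjusted p = 0.381) and -0.06 for Dab2 (adjusted p = 0.583), where 41% of genes were called. Cubn alone was called for day 7 against day 3 (0.35, adjusted p = 0.0421; 18.6% of genes). The Amn call in the last pair (-0.46 ± 0.16, adjusted p = 0.0452) was lost in 9 of 12 fits that left out 1 library (-0.47 to -0.30), all but those without vehicle day 3 replicate 3, vehicle day 7 replicate 3 or VB6 day 7 replicate 1, and after correction (-0.09). The Dab2 value there (0.20 ± 0.10, adjusted p = 0.15) was called without VB6 day 7 replicate 3 (0.27, adjusted p = 0.0389). It was also called at 0.51 on log2(TPM + 0.1) and log2(TPM + 1) with limma (adjusted p = 0.00609 and 0.00438).

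**Figure D3:**
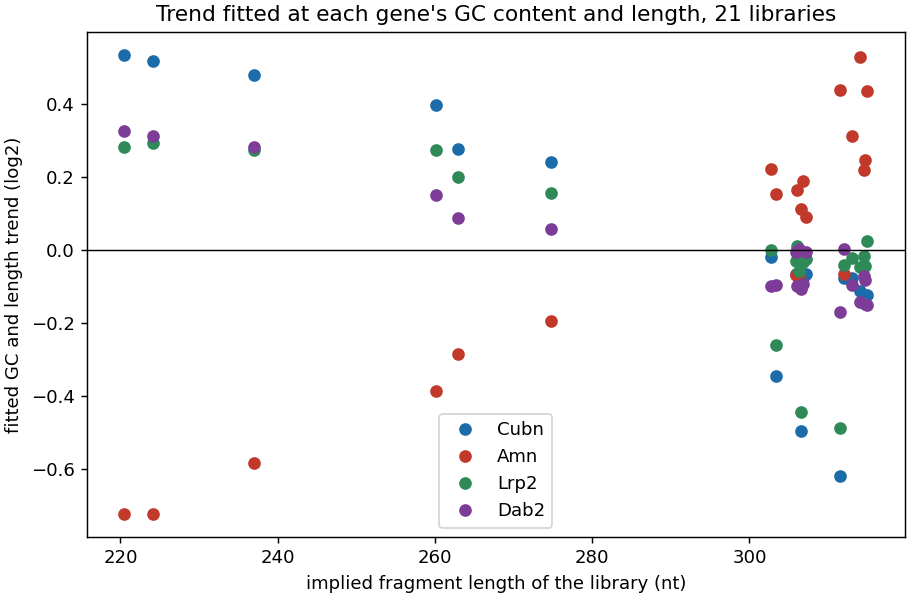
Trend fitted at the GC content and length of each gene (log2, relative to the mean over libraries) against the implied fragment length of each of the 21 libraries (nt). The 3 libraries at 220.5 to 237 nt are vehicle day 5 and the 3 at 260 to 275 nt are VB6 day 7; Amn is negative in all 6 and the other genes positive, and the low Cubn and Lrp2 points near 303 to 312 nt are the ES libraries.

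The 2 subunits of cubam were set against each other within each library, where scaling between libraries plays no part. The ratio of Cubn to Amn on the TPM scale was 0.439, 0.730 and 0.481 in the ES libraries, and the geometric mean was 0.536. It was 1.77 in vehicle day 3 (1.73 to 1.81) and 2.06 in VB6 day 3 (1.997 to 2.17). At day 5 it was 3.98 with vehicle (3.50 to 4.85) and 1.05 with VB6 (0.953 to 1.18), and at day 7 it was 0.872 with vehicle (0.668 to 1.07) and 2.14 with VB6 (1.87 to 2.59). Vehicle and VB6 libraries did not overlap on any of the 3 days, yet the sign of the difference alternated: log2 0.21, -1.92 and 1.29. An exact two-sided permutation test of 3 against 3 libraries gave p = 0.1 on each day, the smallest value it can give. Averaged over days with labels permuted within each day, the difference was -0.14 (exact p = 0.695, adjusted over the 3 ratios tested 0.723). After subtraction of the fitted trends, the log2 ratio was -0.18 in ES, 1.12 and 1.05 in the day 3 vehicle and VB6 groups, 0.81 and 0.48 at day 5, and 0.15 and 0.50 at day 7. These trends were fitted to log2 CPM, while TPM is already divided by effective length. Length may therefore be adjusted in part more than once in these ratios.

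**Figure D4:**
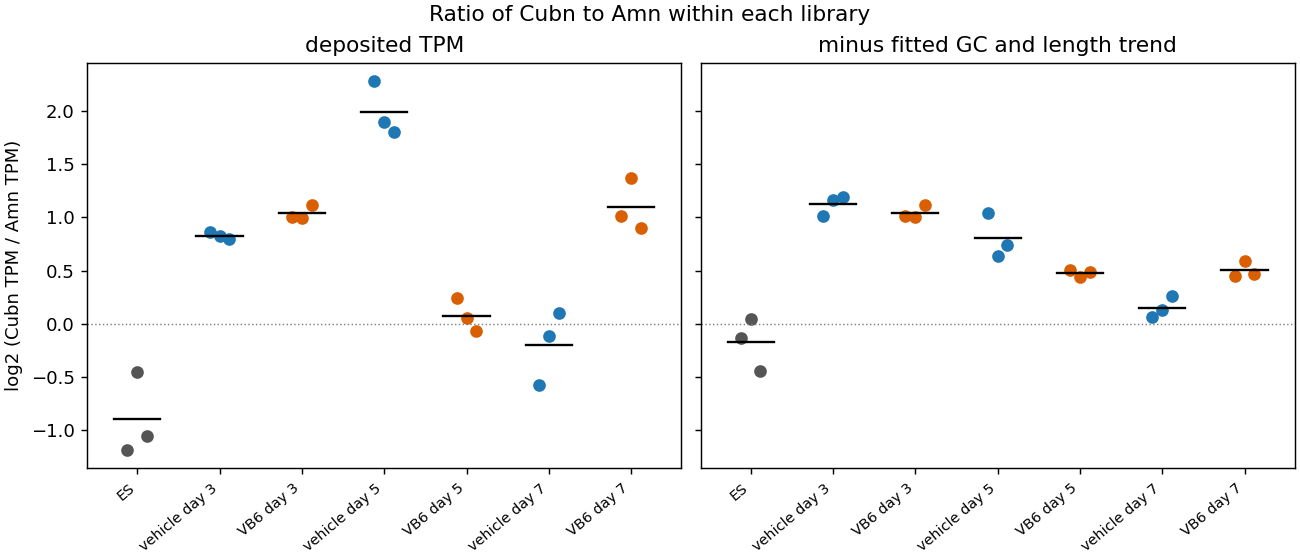
Log2 ratio of Cubn TPM to Amn TPM in each of the 21 libraries (points; lines are means of 3), from the deposited TPM (left) and after subtraction of the fitted GC and length trend (right). Vehicle day 5, at a mean of 1.99 on the left, is at 0.81 on the right, under both day 3 groups. The trend was fitted to log2 CPM, so length may be adjusted in part more than once on the right.

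The other 2 ratios varied less. Lrp2 to Cubn was 1.45 in ES, 1.25 and 1.20 in the day 3 vehicle and VB6 groups, 0.885 and 0.980 at day 5, and 1.03 and 0.689 at day 7, as geometric means of TPM ratios. Its VB6 difference averaged over days was log2 -0.16 (exact permutation p = 0.096, adjusted 0.288). With the trend subtracted it was -0.21 (adjusted exact permutation p = 0.0345), an alternative chosen after seeing the data. Dab2 to Cubn stayed between 2.42 (vehicle day 3) and 4.1 (vehicle day 7) in every group, and its VB6 difference was 0.02 (exact permutation p = 0.723, adjusted 0.723).

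Likeness of pattern was measured as the root mean square (RMS) difference of 2 genes' log2 CPM over the 7 group means, each centred on its own mean, so that 0 is an identical pattern. All groups share 1 cell line, and the vehicle day 5 and VB6 day 7 libraries enter too, without the GC and length correction. Cubn and Dab2 lay 0.25 apart, and of 11580 protein coding genes compared only 1 was closer to Cubn. Cubn and Lrp2 lay 0.32 apart with 6 genes closer to Cubn, while Cubn and Amn lay 0.88 apart with 207 genes closer. The median over all genes was 1.79 from Cubn. The 5 genes nearest to Cubn were Slc40a1, the iron exporter ferroportin (0.18), Dab2, Amot, Lratd2 and Fign, whose transcripts are 43.27% to 48.15% GC. Nearest to Lrp2 were Cachd1 (0.12), Lratd2, Fermt1, Setbp1 and Chst15, and nearest to Dab2 were Gsap (0.22), Cubn, Hsd17b2, Car4 and Amot. Nearest to Amn were Fzd2 (0.22), Fam83h, Prss8, AA986860 and Cited2, whose transcripts are 53.7% to 60.5% GC. With TPM in place of CPM, 3, 4, 2 and 4 of the 5 named genes recurred for Cubn, Amn, Lrp2 and Dab2.

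Promoters were searched for motifs of factors active in this lineage, in the 250 bases before each RefSeq start (GRCm38.p6; 5 starts, 2 of them of Dab2). Both strands were searched for GATA factors with AGATAA or TGATAA, or either of them ending in G in place of the last A, for FOX factors with TGTTTAC or the same word with G in place of its last A, for HNF4 with CAAAGTCCA, and for the palindromic HNF1 motif. The gene's strand was searched for TATAAA. The words of different factors can overlap, and none did in these windows. One match was found, a TGATAA 179 to 174 bases before the first start of Dab2, shown in capitals because it is the only match (chr15:6299539-6299788, plus strand).
Dab2 first start: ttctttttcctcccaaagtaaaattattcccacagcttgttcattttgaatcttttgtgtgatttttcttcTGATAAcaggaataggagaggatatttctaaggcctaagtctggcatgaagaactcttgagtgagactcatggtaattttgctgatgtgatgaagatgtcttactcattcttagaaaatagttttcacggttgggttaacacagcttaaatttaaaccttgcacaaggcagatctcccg
GATA words are common: 26.5% of 32851 windows of this length hold one, against 7.29% for FOX, 7.59% for TATA, 0.384% for HNF4 and 0.00913% for HNF1. The match describes letters in this window and no site.

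The rest of the uptake pathway was counted by function. Among ligands carried by cubilin or megalin, such as apolipoproteins and carrier proteins, 24 of 25 listed symbols had a row and 19 were tested. Between vehicle day 3 and day 7, 16 of the 19 were called higher and 3 lower, with a median log2 fold change of 2.31 (all genes -0.01, 34.3% called higher and 33.1% lower; after correction 15 and 3 of 18, where 73.8% of genes were called). Afp, the fetal serum carrier alpha-fetoprotein, rose from 0.919 to 1080.0 CPM, and Apob, the lipoprotein scaffold, from 76.8 to 1560 CPM. In the VB6 average 12 were called higher and none lower (median 0.33), against 6.58% and 5.16% of all genes. Once corrected, 11 of 18 were higher and 0 lower, where 13.2% of genes were called. Without correction this average joins unlike days. At day 5, 14 were called higher and 1 lower with a median of 0.92 (31.2% and 25.5% of all genes). At day 7, 4 were called higher and 4 lower with a median of 0.14 (18.6% and 17.9%). Corrected counts were 12 higher and 1 lower of 18 at day 5, where 40.6% of genes were called. At day 7 they were 5 higher and 0 lower of 18 (27.4% of genes called). Ttr, the thyroxine and retinol carrier transthyretin, was at 0.54 ± 0.06 (adjusted p = 3.09e-05, edgeR), Apoa1 at 0.80 ± 0.10 (adjusted p = 3.95e-05) and Apoe at 0.44 ± 0.05 (adjusted p = 3.35e-05) in the average. In uncorrected CPM at day 7, however, VB6 means of all 3 lay under the vehicle means. They were 169 against 195 CPM for Ttr, 115 against 151 CPM for Apoa1 and 1454 against 1957 CPM for Apoe.

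Among 37 clathrin coat and adaptor genes other than Dab2, 29 were called higher and 2 lower from vehicle day 3 to day 7 (median 0.50). Of all genes 34.3% and 33.1% were. After correction 27 and 3 were called, where 73.8% of all genes were called. Myo6, the motor that moves endocytic vesicles and binds Dab2, rose by 1.77 ± 0.07, close to the 1.71 of Dab2, and Cltc, the clathrin heavy chain, by 0.70 ± 0.05. In the VB6 average 11 were higher and 1, the neural paralog Dab1 (-0.25 ± 0.06, adjusted p = 0.00997, edgeR), was lower. Of all genes 6.58% and 5.16% were. Once corrected, 8 were higher and 1 lower, where 13.2% of genes were called. Myo6 was at 0.20 ± 0.04 (adjusted p = 0.00224, edgeR) in that average. By day, 22 were higher and 10 lower at day 5 (31.2% and 25.5% of all genes), and 11 and 9 at day 7 (18.6% and 17.9%). Corrected counts were 22 and 5 at day 5 (40.6% of genes called) and 11 and 5 at day 7 (27.4%). Dab1 means were lower with VB6 at days 3 and 5 but 10.2 against 9.21 CPM at day 7. Of 34 recycling and chaperone genes 21 rose and 2 fell over the vehicle days (median 0.41), against 34.3% and 33.1% of all genes, with 24 and 3 after correction. In the VB6 average 8 were higher and none lower, against 6.58% and 5.16% of all genes. Once corrected, 14 were higher and 0 lower, where 13.2% of genes were called. Without correction this average joins unlike days. At day 5, 14 were higher and 15 lower (31.2% and 25.5% of all genes). At day 7, 14 were higher and 6 lower (18.6% and 17.9%). Corrected counts were 20 higher and 1 lower at day 5, where 40.6% of genes were called. At day 7 they were 10 higher and 4 lower (27.4% of genes called). Lrpap1, the chaperone of the megalin family, was at 0.22 ± 0.05 (adjusted p = 0.00559, edgeR) in the average. Its VB6 mean was above vehicle only at day 5, at 267.6 against 141.4 CPM. Lrpap1 means were 112.2 against 119.5 CPM at day 3 and 186.6 against 211.2 CPM at day 7. Clcn5, an endosomal chloride transporter needed for uptake in kidney tubule, rose by 1.45 ± 0.07 from vehicle day 3 to day 7.

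Other endocytic receptors were mixed. Of 29 tested, 15 rose and 7 fell from vehicle day 3 to day 7 (median 0.39), against 34.3% and 33.1% of all genes. After correction 13 rose and 11 fell of 28, where 73.8% of genes were called. Tfrc, the transferrin receptor, fell by 1.54 on the log2 scale, while Folr1, a folate receptor, rose by 1.33 ± 0.08. In the VB6 average 2 were higher and 1 lower, shares near the 6.58% and 5.16% of all genes. Once corrected, 2 and 3 of 28 were, where 13.2% of genes were called. The 1 gene called lower without correction was Tfrc (-0.29 ± 0.04, adjusted p = 0.000253, edgeR). Its means were 231.7 CPM with VB6 against 458.5 CPM at day 5 but 219 against 178 CPM at day 7. Of 22 visceral endoderm transcription factors 17 rose and 3 fell over the vehicle days (median 1.59), against 34.3% and 33.1% of all genes. The counts were the same after correction. In the VB6 average 4 were higher and 1 lower, against 6.58% and 5.16% of all genes. Once corrected, 3 and 2 were, where 13.2% of genes were called. At day 5, 14 were higher and 2 lower (31.2% and 25.5% of all genes), and at day 7, 2 and 3 (18.6% and 17.9%). Corrected counts were 11 higher and 3 lower at day 5, where 40.6% of genes were called. At day 7 they were 7 higher and 1 lower (27.4% of genes called). Hnf4a rose by 2.10 ± 0.08 over the vehicle days and was at 0.26 ± 0.05 in the VB6 average.

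Markers give the setting of these values, since in bulk RNA fewer cells of a type and less RNA per cell cannot be told apart. The summed level of 14 visceral endoderm markers, which include Amot, ranged over 136 to 150 CPM for ES and, among the vehicle groups, over 416 to 478 CPM at day 3, 2000 to 2409 CPM at day 5 and 4428 to 4728 CPM at day 7. With VB6 it was 499 to 569, 2386 to 2707 and 5364 to 6671 CPM. At day 7 Apob held 2588 CPM with VB6 against 1560 CPM with vehicle, and Afp 1439 against 1080 CPM. Tfpi, Fgb, Amot and Hnf4a also had higher means with VB6 on that day. Means of Apoa1, Apom, Ttr, Rbp4, Cited1, Spink1, Rhox5 and Soat2 were lower with VB6. Of the 14, Afp was at 0 in all ES libraries, and all 14 averaged at least 1 CPM from day 5. Most of the ES sum was Tfpi, at 100.5 CPM. Summed parietal endoderm markers also rose, with 1399 to 1732 CPM at day 3 and 6110 to 6741 CPM at day 7 of vehicle, as did mesenchyme markers, with 38.0 to 40.8 CPM and 989.8 to 1193 CPM. Parietal means were lower with VB6 at day 3, at 1373 against 1587 CPM. They were higher at day 5 (4572 against 2573 CPM) and day 7 (7766 against 6391 CPM). Primitive endoderm markers summed to 138, 226 and 964 CPM in ES, vehicle day 3 and vehicle day 7. Definitive endoderm markers summed to 84.8, 146 and 263 CPM there, and embryonic stem cell markers to 3449, 1411 and 368.5 CPM. Markers of neuroepithelium, which also uses megalin, summed to 26.2 CPM in ES, 233 CPM in vehicle day 3 and 198 CPM in vehicle day 7, and Otx2 held 206 CPM of the day 3 sum. Trophoblast markers summed to 87.5, 83.3 and 901 CPM in the same groups, and Krt8 held 816 CPM of the day 7 sum. Prl3d1 was at 0 in every library. Tpbpa was too outside vehicle day 7, where an expected count above 0 rounded to 0. Of 10 kidney proximal tubule markers, Kap and Slc22a12 were at 0 in every library and the sum reached 26.7 CPM at most, in ES, and 9.47 CPM in the other groups. Enterocyte markers summed to 73.2 CPM in ES, 37.1 CPM in vehicle day 3 and 49.8 CPM in vehicle day 7, where Vil1 was at 28.6 and Cdx2 at 7.52 CPM, and Alpi was at 0 in every library. Macrophage markers summed to 27.7, 12.7 and 37.5 CPM in those groups, mostly Cd68 (32.0 CPM at day 7), and Tyrobp was at 0 in every library. The part of marker levels in the differences of the 4 genes was not tested.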

How the data were processed

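The authors deposited expected counts (estimated counts per gene, not normalized; 26.9% to 30.5% of values above 0 per library are not whole) and TPM and FPKM for 21 libraries. The deposited TPM values were scaled by the authors per transcript length and to a common library total; the deposited FPKM values served only to derive effective lengths. The submitters' processing notes name mm10. Aligner, counter and gene models were not given in the sources used here. Protocols in the labels name total RNA but also describe small RNA enrichment, so library preparation is uncertain. Positions and GC content came from GENCODE M21 (mm10); 26830 gene IDs outside it held 1.92% of counts. The 21909 rows without a symbol were kept in the fit.

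Counts were rounded (the design had assumed whole counts), filtered with filterByExpr and scaled by TMM. The edgeR 4.0.16 quasi-likelihood test (R 4.3.3) was fitted over all libraries with 7 group means, Benjamini-Hochberg adjusted over 18901 genes and tested on simulated data. SE is the log2 fold change over the square root of F. The trend correction is a robust fit of natural splines (5 degrees of freedom each) in GC content and log2 effective length per library, for the 16418 genes (86.9%) with both, used as offsets. TPM was tested with limma 3.58.1 on log2(TPM + 0.1) and log2(TPM + 1). Other alternatives were DESeq2 1.42.0, other filters, fewer groups, left-out libraries and a replicate block.

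Named genes were the 4 members and, per list, up to 4 genes with the smallest p in the VB6 average and in vehicle day 7 against day 3. The members and lists were chosen with earlier results of these data known. Likeness used protein coding genes reaching 5 CPM in a group. Libraries of a group differed by more than sampling noise (chi-square per gene 2.16 to 15.2), so none was treated as deposited in duplicate; this does not show separate cultures.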

Additional observations from a re-analysis of the deposited data

Results flagged for a closer look

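The VB6 difference was not the same at days 3, 5 and 7 for 3 of the 4 genes, by a joint test of the 2 day interactions in the edgeR fit (Benjamini-Hochberg adjusted over all genes). The adjusted p was 5.21e-11 for Amn, 7.16e-05 for Cubn and 0.000118 for Dab2, and 0.321 for Lrp2. Lrp2 is not thereby shown to be the same on all days. Its change of 0.10 from day 3 to day 5 became 0.37 after correction (adjusted p = 3.21e-05), and its change of 0.01 from day 5 to day 7 became -0.48 after correction (adjusted p = 3.29e-07) and 0.64 on log2(TPM + 1) with limma (adjusted p = 6.68e-05). The same test called 60% of all genes. Between day 3 and day 5 the VB6 difference changed by log2 1.89 ± 0.17 for Amn (corrected 0.63) and -0.35 ± 0.10 for Dab2 (corrected 0.11, adjusted p = 0.349). Between day 5 and day 7 it changed by -2.34 ± 0.16 for Amn (corrected -0.72), 0.79 ± 0.14 for Cubn (corrected -0.14, adjusted p = 0.381) and 0.54 ± 0.10 for Dab2 (corrected -0.06, adjusted p = 0.583). The vehicle day 5 and VB6 day 7 libraries, with implied fragments of 227 and 266 nt, enter these interactions, and their property cannot be told apart from the groups.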

How the results depend on the processing

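Of 1124 values of the 4 genes and their ratios recomputed under alternatives, 1024 kept their side of the threshold without a reversal. So did 470 of 489 with a library or replicate number left out. A change of direction was counted as a reversal only where at least 1 of the 2 values was called. Counts of genes called are not among these values and are given below where they changed by more than 1.5 times. The GC and length correction moved most. It reversed Cubn at day 5 (0.44), in vehicle day 7 against day 5 (0.16) and in the interactions day 5 minus day 3 (0.49) and day 7 minus day 5 (-0.14). It reversed Dab2 in the same 4 (0.28, 0.29, 0.11 and -0.065), Lrp2 at day 7 (-0.16), in vehicle day 7 against day 5 (0.14) and in the interaction day 7 minus day 5 (-0.48), and Amn in VB6 day 7 against day 5 (0.029). Calls were lost for Amn at day 7 (-0.043) and Cubn in VB6 day 7 against day 5 (0.017). Calls were gained for Amn in vehicle day 5 against day 3 (1.05), the Cubn average (0.23), Lrp2 at day 5 (0.32), in VB6 day 7 against day 5 (-0.34) and in the interaction day 5 minus day 3 (0.37), and the Lrp2 to Cubn ratio (-0.21). With the replicate block and the correction together, the same changes read 0.44, 0.16, 0.49 and -0.14 for Cubn, 0.29, 0.29, 0.11 and -0.066 for Dab2, -0.16, 0.14 and -0.48 for Lrp2, 0.030 for Amn, then -0.040 and 0.017 (lost) and 1.05, 0.23, 0.32, -0.34 and 0.37 (gained). The replicate block alone gained Dab2 at day 3 (0.23, adjusted p = 0.0451) and lost the Amn interaction day 7 minus day 3 (-0.45, adjusted p = 0.0516). Replicate numbers gave no clear pairing of libraries. Over 63 same-numbered pairs the correlation of deviations ran from -0.15 to 0.16, with 1 above 0.1. The median was 0.001, and 0.002 over pairs of other numbers. Of 21 libraries 11 correlated best with their own number, which some do by chance among 3 numbers, so a pairing is not excluded.

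On log2(TPM + 0.1) and log2(TPM + 1), Lrp2 reversed at day 5 (-0.30 and -0.29) and in VB6 day 7 against day 5 (0.25 and 0.25). Calls were lost for Amn in VB6 day 7 against day 5 (-0.26 and -0.26), the Dab2 average (0.16 and 0.16) and, with 0.1 only, the Amn average (0.28). Calls were gained for Amn in vehicle day 5 against day 3 (0.51 and 0.49), Cubn at day 5 (-0.44 and -0.44), Dab2 at day 5 (-0.32 and -0.32) and in vehicle day 7 against day 5 (-0.28 and -0.27), and Lrp2 at day 7 (0.35 and 0.35). In the interactions, calls were gained for Lrp2 day 7 minus day 5 (0.64 and 0.64) and day 7 minus day 3 (0.47 and 0.46) and for Dab2 day 7 minus day 3 (0.51 and 0.51). Dab2 at day 3 was called under DESeq2 (0.24), DESeq2 size factors (0.24), no filter (0.25), only the groups compared (0.24) and, chosen after seeing the data, without the vehicle day 5 and VB6 day 7 groups (0.24). The Cubn average was called under DESeq2 (0.16), no filter (0.16) and only the groups compared (0.16), Amn in vehicle day 5 against day 3 under the last (0.20), and Lrp2 in vehicle day 7 against day 5 was lost with no filter (-0.11). With 1 library left out, the Cubn average ran from 0.14 to 0.21, Lrp2 in vehicle day 7 against day 5 from -0.14 to -0.091 and Lrp2 in VB6 day 7 against day 5 from -0.18 to -0.075. The Amn interaction day 7 minus day 3 lost its call in 9 of 12 such fits (adjusted p up to 0.148).

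Genes called for VB6 at day 3 numbered 805, against 200 and 277 on the TPM scales, 1393 with no filter, 2104 with only the groups compared, 1385 corrected (1381 with the block) and 192 to 850 with 1 library left out. Corrected counts were 6658 against 10716 at day 5, 4496 against 6899 at day 7, 5278 against 9070 for day 5 minus day 3 and 6727 against 10910 for day 7 minus day 5 (6614, 4475, 5255 and 6686 with the block). The average called 1309 on log2(TPM + 0.1) against 2218, and day 7 minus day 3 called 6816 on log2(TPM + 1) against 4360. The corrected fit tested 16418 genes; otherwise the cause was not tested. Depth did not limit the 4 genes: the lowest, Amn in ES, held 100 counts or more per library. The 3 libraries per group limit the ratio tests.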
